A study of Mus musculus with 10 samples.

Results

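The genes described here are 8 protein-coding genes that lie outside chromosomes 11 and 16 and that were chosen by a shift in their estimated reads between mouse embryonic stem cell (ESC) lines with 1 functional copy of Tdg (Tdg+/-) and wt lines. They are Inpp5d, Chit1, Zscan5b, Atp8b2, Gcn1, Dclk2, Irak3 and Zfp770, 8 of 35427 genes with a name and a count. Genes of chromosome 11 stood higher as a whole in the Tdg+/- lines, and 1 wt line stood higher for chromosome 16, and the choice left both chromosomes out. RNA was sequenced in 10 male ESC lines on the C57BL/6 background, 3 wt, 3 Tdg+/- and 4 Tdg-/-, with 1 library for each line. The lines came from blastocysts of matings between Tdg+/- parents, were started on feeder cells, and were grown in serum-free 2i medium with LIF on gelatin, without feeder cells in the last passages before RNA was taken. A line is a culture grown from an embryo; a p-value here speaks of line-to-line spread, and the labels do not tie a line to its mating. The libraries held 31095285 to 39916039 estimated reads in genes (median 36008472).

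TDG, thymine-DNA glycosylase, removes formylated and carboxylated cytosine from CG dinucleotides and so completes active DNA demethylation, and it also binds nuclear receptors. The 8 genes belong to no common pathway. Inpp5d encodes the inositol phosphatase SHIP1, Chit1 the secreted chitinase chitotriosidase of macrophages, and Zscan5b and Zfp770 encode zinc finger proteins. Atp8b2 is a phospholipid flippase of the P4-ATPase family, Gcn1 senses stalled and colliding ribosomes and activates the kinase GCN2, Dclk2 is a doublecortin-like kinase of microtubules, and Irak3 encodes IRAK-M, a brake on Toll-like and interleukin 1 receptor signaling.

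Levels per line are given in CPM, the read count relative to library size, scaled by TMM, and always in the order of the line numbers, lines 1 to 3 for wt and Tdg+/- and lines 1 to 4 for Tdg-/-. Tdg itself, on chromosome 10, stood at 86.4, 91.1 and 93.1 CPM in the wt lines, at 40.3, 41.9 and 45.9 CPM in the Tdg+/- lines and at 7.75, 10.6, 10.3 and 8.49 CPM in the Tdg-/- lines. These levels matched the labels in every line. The ESC markers Pou5f1, Sox2, Nanog, Zfp42, Esrrb, Klf4, Tfcp2l1 and Dppa5a were present in all 10 lines, with a sum of 6129 to 9044 CPM. Of 10 blood cell markers, 7 stayed under 20 reads in every line (Ptprc and Csf1r at no more than 3 reads, Adgre1 and Tyrobp at no more than 1). The summed level of the whole list ranged from 67.8 to 87.2 CPM in wt, 68.7 to 92.3 CPM in Tdg+/- and 49.9 to 73.3 CPM in Tdg-/- lines, most of it from Laptm5 and Cd68. Cd68, itself on chromosome 11, fell by 0.82 from Tdg+/- to Tdg-/- lines (SE 0.189, edgeR, adjusted p = 0.0367). The part of blood-like cells in the levels of Inpp5d and Chit1 was not tested. Fibroblast markers of the kind feeder cells carry summed to 23.5 to 45.7, 5.80 to 49.5 and 13.2 to 35.1 CPM in wt, Tdg+/- and Tdg-/- lines. The lowest and the highest of these sums both belonged to Tdg+/- lines, lines 2 and 3. Primitive endoderm markers were low throughout, with 3 of 6 under 20 reads in every line, and summed to 3.32 to 3.73 CPM in wt, 2.09 to 2.96 CPM in Tdg+/- and 2.61 to 3.21 CPM in Tdg-/- lines, so that the sums of Tdg+/- and wt lines did not overlap. Of the 3 markers tested from wt to Tdg+/- lines, Sox7, with no more than 23 reads, had a log2 fold change of -1.32 (SE 0.447). Gata4 had -0.56 (SE 0.338), Pdgfra went the other way with 0.24 (SE 0.379), and none was called (edgeR). The part of these markers in the levels below was not tested. The median gene of chromosome 11 stood at -0.09, -0.08 and -0.13 in the wt lines, at 0.20, 0.42 and 0.27 in the Tdg+/- lines and at -0.03, -0.11, -0.18 and 0.05 in the Tdg-/- lines, on a log2 scale relative to each gene's median over the lines. The part of chromosome 11 in the levels below was not tested.

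**Figure D1:**
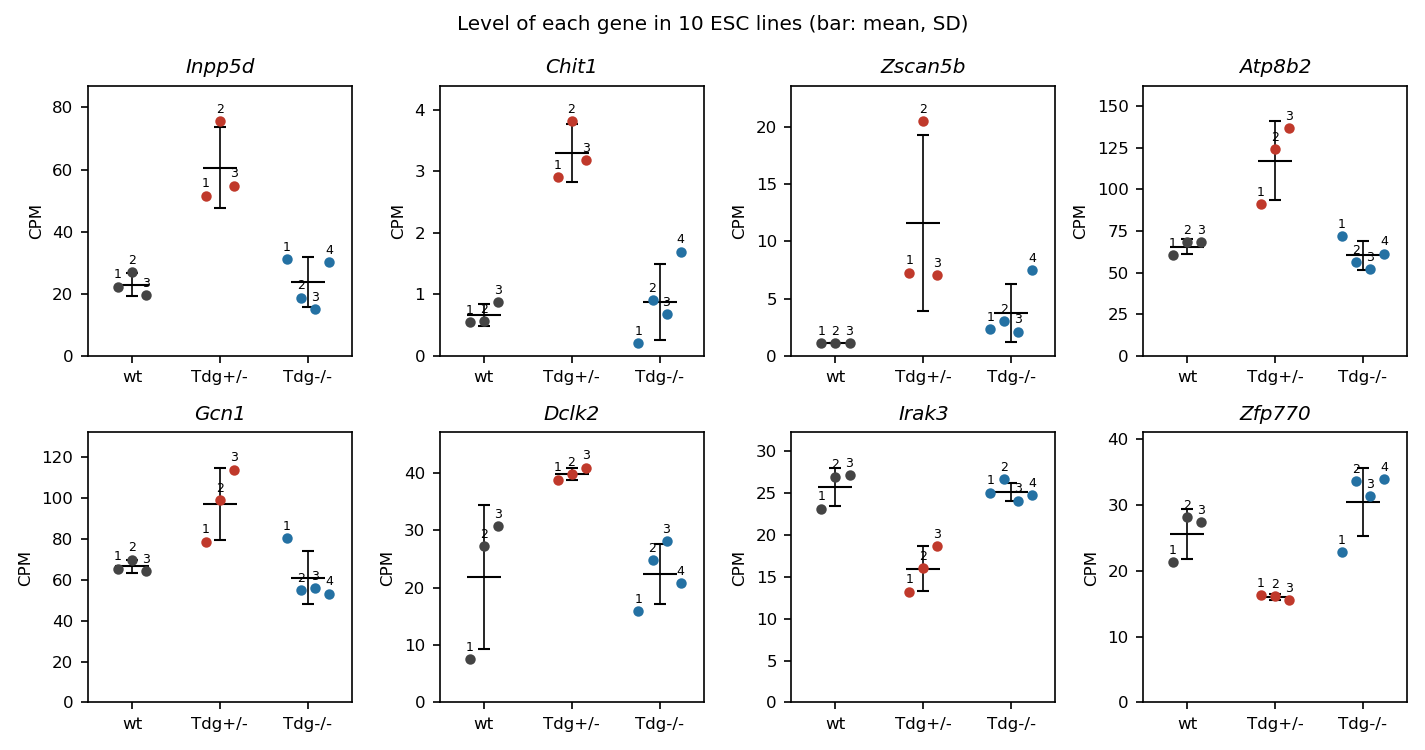
CPM of the 8 genes (vertical axes, each from 0) in the wt, Tdg+/- and Tdg-/- lines, with a point for every line and its number, and the mean with SD as a bar. The 3 Tdg+/- lines lie above all wt lines in 6 panels and below them in the panels of Irak3 and Zfp770. Of 32 Tdg-/- points 11 lie in the wt range and 2 in the Tdg+/- range. The others lie between these ranges or beyond the wt range on the side away from the Tdg+/- lines.

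All 8 genes kept the Tdg+/- lines apart from the wt lines, 6 of them higher and 2 lower. A shift between these genotypes is what chose them. The separation, and any count of the 8 called between these genotypes, is therefore a description and not a test. Among all 13880 genes tested, 21.7% had Tdg+/- and wt lines that did not overlap, 12.6% higher and 9.09% lower. The fit across all genes (edgeR, quasi-likelihood test with Benjamini-Hochberg adjustment, called at an adjusted p under 0.05) called 4 genes between Tdg+/- and wt lines (0.0288%), and none of the 8. At an unadjusted p under 0.05, 2354 genes passed, and DESeq2 called 744 genes (5.36%) and 7 of the 8. With 3 surrogate variables, the number the study used, edgeR called 3350 genes (24.1%) and all 8, in a fit with 1 residual degree of freedom. The Tdg-/- lines took no part in the choice. No Tdg-/- line lay beyond the range of the Tdg+/- lines in the direction of the shift. Of 32 values, 11 fell within the range of the wt lines and 2 within the range of the Tdg+/- lines. Dclk2 and Irak3 gave 4 each of those in the wt range, which for Dclk2 reached down to wt line 1 at 7.56 CPM. The other values lay between the 2 ranges or beyond the wt range on the side away from the shift. That side held 3 lines each of Gcn1 and Zfp770, 2 each of Inpp5d and Atp8b2 and 1 of Chit1.

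Inpp5d (ENSMUSG00000026288, chromosome 1) encodes SHIP1, which removes the 5-phosphate from the PI3K product PIP3 and is best known from blood cells. It stood at 22.3, 27.02 and 19.6 CPM in the wt lines. The Tdg+/- lines held 51.6, 75.6 and 54.8 CPM. The Tdg-/- lines held 31.2, 18.8, 15.1 and 30.1 CPM, with lines 1 and 4 above and lines 2 and 3 below the wt lines. Means were 22.95 ± 3.76, 60.7 ± 13.02 and 23.8 ± 8.09 CPM (SD, n = 3, 3 and 4), a log2 fold change of 1.39 (SE 0.186) from wt to Tdg+/- and 0.07 (SE 0.248) from wt to Tdg-/-.

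Nearly all Inpp5d reads were assigned to a short form of the transcript. Stem cells are known to make s-SHIP, a form of SHIP1 that lacks the SH2 domain and starts from a promoter inside the gene. Inpp5d-208 and Inpp5d-211, which start 55927 bases downstream of the first annotated start and have 22 and 23 exons, held 94.78% of the reads of the gene over all lines. This class stood at 18.6, 25.2 and 16.9 CPM in wt, 51.4, 75.4 and 53.5 CPM in Tdg+/- and 26.2, 18.5, 15.02 and 26.04 CPM in Tdg-/- lines. The Tdg+/- lines were above every other line for it. The 8 transcripts that start within 2000 bases of the first start did the opposite in the Tdg+/- lines and did not follow genotype in the Tdg-/- lines. They held 116, 62.7 and 85.2 reads in wt, 4.90, 3.90 and 36.6 reads in Tdg+/- and 164, 4.80, 2.00 and 131 reads in Tdg-/- lines. Reads shared by both forms were divided by the estimate of the authors' pipeline, so the split has that uncertainty as well. The start window of the first start in RefSeq (300 bases, 250 before and 50 after the start, GRCm38.p6 chr1:87620062-87620361, plus strand) is shown because 4.9% of the reads were assigned to transcripts that start there. By this estimate it is not the start in main use. Capitals mark its 6 CG dinucleotides, the substrate context of TDG, against a median of 7.0 in 32851 such windows.
Inpp5d, first start: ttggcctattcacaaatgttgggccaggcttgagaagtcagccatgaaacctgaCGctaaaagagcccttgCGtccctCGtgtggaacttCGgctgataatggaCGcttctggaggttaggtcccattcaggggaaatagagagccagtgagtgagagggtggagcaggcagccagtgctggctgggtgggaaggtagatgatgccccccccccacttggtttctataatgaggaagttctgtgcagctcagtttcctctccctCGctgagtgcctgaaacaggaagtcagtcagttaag

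Chit1 (ENSMUSG00000026450, chromosome 1) encodes chitotriosidase, a chitin-cleaving enzyme of macrophages, and was among the weakest of the 8 genes. The wt lines held 18, 21 and 28 reads, the Tdg+/- lines 97, 146 and 132 and the Tdg-/- lines 7, 33, 24 and 57. In CPM this was 0.553, 0.567 and 0.878 for wt, 2.90, 3.81 and 3.18 for Tdg+/- and 0.211, 0.910, 0.675 and 1.69 for Tdg-/- lines. Every Tdg+/- line was above every other line, and the Tdg-/- lines spread 8.01-fold from the lowest, line 1, to the highest, line 4. The log2 fold change was 2.30 (SE 0.284) from wt to Tdg+/- and 0.42 (SE 0.560) from wt to Tdg-/-. Chit1-202 held 91.44% of its reads, and Chit1-203, with the same start, the rest. The neighbouring gene of the same family, Chil1, a chitinase-like lectin without enzyme activity, had a log2 fold change of -0.01 (SE 0.339) from wt to Tdg+/-. The start window of Chit1 (chr1:134110992-134111291, plus strand, GRCm38.p6) is shown because all its reads came from this start, and it held 2 CG dinucleotides, in capitals, a count that 23.3% of all windows do not exceed.
Chit1: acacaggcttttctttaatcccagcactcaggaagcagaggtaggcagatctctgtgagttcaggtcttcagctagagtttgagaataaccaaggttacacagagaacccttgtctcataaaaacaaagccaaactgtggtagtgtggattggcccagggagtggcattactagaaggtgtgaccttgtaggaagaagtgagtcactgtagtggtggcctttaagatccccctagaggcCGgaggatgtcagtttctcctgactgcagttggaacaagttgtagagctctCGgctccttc

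Zscan5b (ENSMUSG00000058028, chromosome 7), a SCAN domain zinc finger gene, had the largest difference of the 8 genes and was the one whose Tdg-/- lines were also all above the wt lines. It had 37, 41 and 36 reads in wt, 243, 785 and 293 reads in Tdg+/- and 77, 111, 75 and 253 reads in Tdg-/- lines. The levels were 1.14, 1.11 and 1.13 CPM in wt, 7.27, 20.5 and 7.06 CPM in Tdg+/- and 2.32, 3.06, 2.11 and 7.51 CPM in Tdg-/- lines. The wt lines differed 1.03-fold from lowest to highest, and the Tdg+/- lines 2.91-fold. Line 4 of the Tdg-/- lines was inside the range of the Tdg+/- lines. The log2 fold change was 3.36 (SE 0.448) from wt to Tdg+/-, 2.66 without Tdg+/- line 2, and 1.76 (SE 0.451) from wt to Tdg-/-, which did not pass the test (edgeR, adjusted p = 0.295). It passed with DESeq2 (adjusted p = 0.0137) and without Tdg-/- line 1 (edgeR, adjusted p = 0.0231), a fit that called 3077 of 13897 genes (22.1%). Without Tdg-/- line 4 it was 1.17 (edgeR, adjusted p = 0.616) and with the line number as a block 1.16 (edgeR, adjusted p = 0.397). The highest Zscan5b line of each genotype with a mutant allele, Tdg+/- line 2 and Tdg-/- line 4, was also the line of that genotype with the highest chromosome 11 median, 0.42 and 0.05. Chit1 had its highest Tdg+/- and Tdg-/- levels in the same lines, and a link to chromosome 11 was not tested. All reads were assigned to Zscan5b-201. Genes that mark the 2-cell-like state of ESCs, in which relatives of the SCAN family are switched on, were under 20 reads in every line.

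Atp8b2 (ENSMUSG00000060671, chromosome 3) encodes a flippase, known from human cells to move phosphatidylcholine to the inner leaflet of the plasma membrane. It stood at 60.4, 68.1 and 68.3 CPM in wt, 90.9, 124 and 137 CPM in Tdg+/- and 71.96, 56.4, 51.9 and 61.4 CPM in Tdg-/- lines. Of the Tdg-/- lines, line 1 was above the wt lines, line 4 among them and lines 2 and 3 below, and all were below the Tdg+/- lines. The log2 fold change was 0.83 (SE 0.162) from wt to Tdg+/- and -0.10 (SE 0.129) from wt to Tdg-/-. Most reads were assigned to transcripts that keep an intron, 72.5% over all lines and 64.3 to 77.9% by line. The largest of these, Atp8b2-204, stood at 37.9, 39.5 and 37.9 CPM in wt, 49.8, 72.9 and 84.8 CPM in Tdg+/- and 43.1, 34.4, 32.1 and 37.9 CPM in Tdg-/- lines. The main coding transcript, Atp8b2-201, stood at 15.4, 12.2 and 18.6 CPM in wt, 28.8, 35.4 and 22.4 CPM in Tdg+/- and 17.2, 12.5, 11.7 and 12.3 CPM in Tdg-/- lines. The Tdg+/- lines were above all wt lines for both, so the shift was not a change of 1 class alone.

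Gcn1 (ENSMUSG00000041638, chromosome 5) was higher in each Tdg+/- line than in any wt line. It stood at 65.5, 70.00 and 64.3 CPM in wt, 78.8, 99.1 and 114 CPM in Tdg+/- and 80.3, 54.9, 56.04 and 53.2 CPM in Tdg-/- lines. Line 1 of the Tdg-/- lines was above Tdg+/- line 1, and the other Tdg-/- lines were below all wt lines. The log2 fold change was 0.54 (SE 0.147) from wt to Tdg+/- and -0.10 (SE 0.149) from wt to Tdg-/-. The coding transcript, listed as Gcn1l1-201, held 95.15% of the reads. TPM values, the transcript share after division by length, were unsteady for this gene, since a transcript of 240 bases, Gcn1l1-208, held 8.6 to 11.9 reads in 4 lines and none in the others, and was worth 13.3 to 14.8 TPM where present. Without transcripts under 500 bases, Gcn1 stood at 5.16, 5.63 and 5.21 TPM in wt, 7.17, 8.21 and 9.58 TPM in Tdg+/- and 7.23, 3.83, 4.16 and 4.53 TPM in Tdg-/- lines, with the Tdg+/- lines above all wt lines as in CPM.

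Dclk2 (ENSMUSG00000028078, chromosome 3), a kinase with doublecortin domains that binds microtubules, stood at 7.56, 27.2 and 30.7 CPM in wt, 38.8, 39.7 and 40.9 CPM in Tdg+/- and 15.9, 24.7, 28.1 and 20.8 CPM in Tdg-/- lines. The Tdg+/- lines differed 1.05-fold from lowest to highest and the wt lines 4.06-fold, since wt line 1 stood far below the other wt lines. All Tdg-/- lines were inside the wt range. The log2 fold change was 0.85 (SE 0.414) from wt to Tdg+/- and 0.06 (SE 0.396) from wt to Tdg-/-, but 0.46 and -0.35 without wt line 1, the line that also stood apart for chromosome 16 (median 0.40 on the log2 scale above). The reads were divided among 5 main transcripts. The means of the Tdg+/- lines were 1.56 to 2.31 times those of the wt lines for these, with wt line 1 included. For Dclk2-209 and Dclk2-206 the Tdg+/- and wt lines overlapped. The highest ratio was that of Dclk2-204, a transcript marked for nonsense-mediated decay. That transcript made up 16.5% of the gene in wt line 1 and 22.7 to 32.3% in the other lines. Dclk2 overlaps the pseudogene Gm37025 on the opposite strand, which had 29 to 72 reads a line.

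Irak3 (ENSMUSG00000020227, chromosome 10) was lower in the Tdg+/- lines and lies on the chromosome that also carries Tdg. It encodes IRAK-M, which restrains signaling downstream of MyD88. The wt lines held 23.1, 26.99 and 27.2 CPM and the Tdg+/- lines 13.3, 16.01 and 18.7 CPM. The Tdg-/- lines held 25.1, 26.7, 24.1 and 24.7 CPM, all inside the wt range. Means were 25.8 ± 2.28, 15.98 ± 2.71 and 25.2 ± 1.10 CPM (SD, n = 3, 3 and 4), a log2 fold change of -0.70 (SE 0.156) from wt to Tdg+/- and -0.01 (SE 0.115) from wt to Tdg-/-. Irak3-205 held 89.09% of the reads and Irak3-201, which starts 471 bases downstream, 7.56%. Irak3-205 stood at 19.97, 24.7 and 24.02 CPM in wt, 11.7, 14.1 and 16.7 CPM in Tdg+/- and 23.2, 24.01, 21.5 and 21.1 CPM in Tdg-/- lines. Irak3-201 stood at 2.33, 1.43 and 2.43 CPM in wt, 1.22, 1.49 and 1.47 CPM in Tdg+/- and 1.25, 1.52, 1.49 and 2.56 CPM in Tdg-/- lines, with overlap between all genotypes. The gene overlaps Tmbim4 on the opposite strand, whose reads could be mixed with those of Irak3 if strand was not used, a setting not given in the sources used here. Tmbim4 had 754 to 1107 reads a line and a log2 fold change of 0.15 (SE 0.120) from wt to Tdg+/-. Both start windows are shown because the starts differ in use and in CG content. The window of Irak3-205 (GRCm38.p6 chr10:120202081-120202380, minus strand) held 8 CG dinucleotides, and that of Irak3-201 and 2 minor transcripts (chr10:120201548-120201847, minus strand), with 9.2% of the reads, held 26, in capitals.
Irak3-205 start: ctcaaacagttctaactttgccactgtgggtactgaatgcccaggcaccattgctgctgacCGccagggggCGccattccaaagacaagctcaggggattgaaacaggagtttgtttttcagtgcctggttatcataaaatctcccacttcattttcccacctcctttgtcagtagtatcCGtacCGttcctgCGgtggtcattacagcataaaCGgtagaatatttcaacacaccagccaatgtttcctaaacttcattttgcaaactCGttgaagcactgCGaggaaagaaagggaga
Irak3-201 start: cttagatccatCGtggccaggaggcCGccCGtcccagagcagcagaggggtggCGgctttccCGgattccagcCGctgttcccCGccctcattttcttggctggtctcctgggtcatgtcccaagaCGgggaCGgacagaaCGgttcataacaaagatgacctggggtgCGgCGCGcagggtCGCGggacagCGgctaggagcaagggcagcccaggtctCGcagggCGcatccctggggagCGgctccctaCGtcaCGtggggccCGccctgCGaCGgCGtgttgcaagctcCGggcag

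Zfp770 (ENSMUSG00000040321, chromosome 2), a zinc finger gene, was also lower in the Tdg+/- lines. The levels were 21.3, 28.2 and 27.4 CPM in wt, 16.4, 16.2 and 15.6 CPM in Tdg+/- and 22.8, 33.7, 31.4 and 34.00 CPM in Tdg-/- lines. The Tdg+/- lines lay within 1.05-fold of each other, below all other lines, and lines 2 to 4 of the Tdg-/- lines were above all wt lines. The log2 fold change was -0.68 (SE 0.140) from wt to Tdg+/- and 0.28 (SE 0.173) from wt to Tdg-/-. Without Tdg-/- line 1 the latter passed the test (edgeR, adjusted p = 0.0481), among 22.1% of all genes. Zfp770-201 held 96.99% of the reads.

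**Figure D2:**
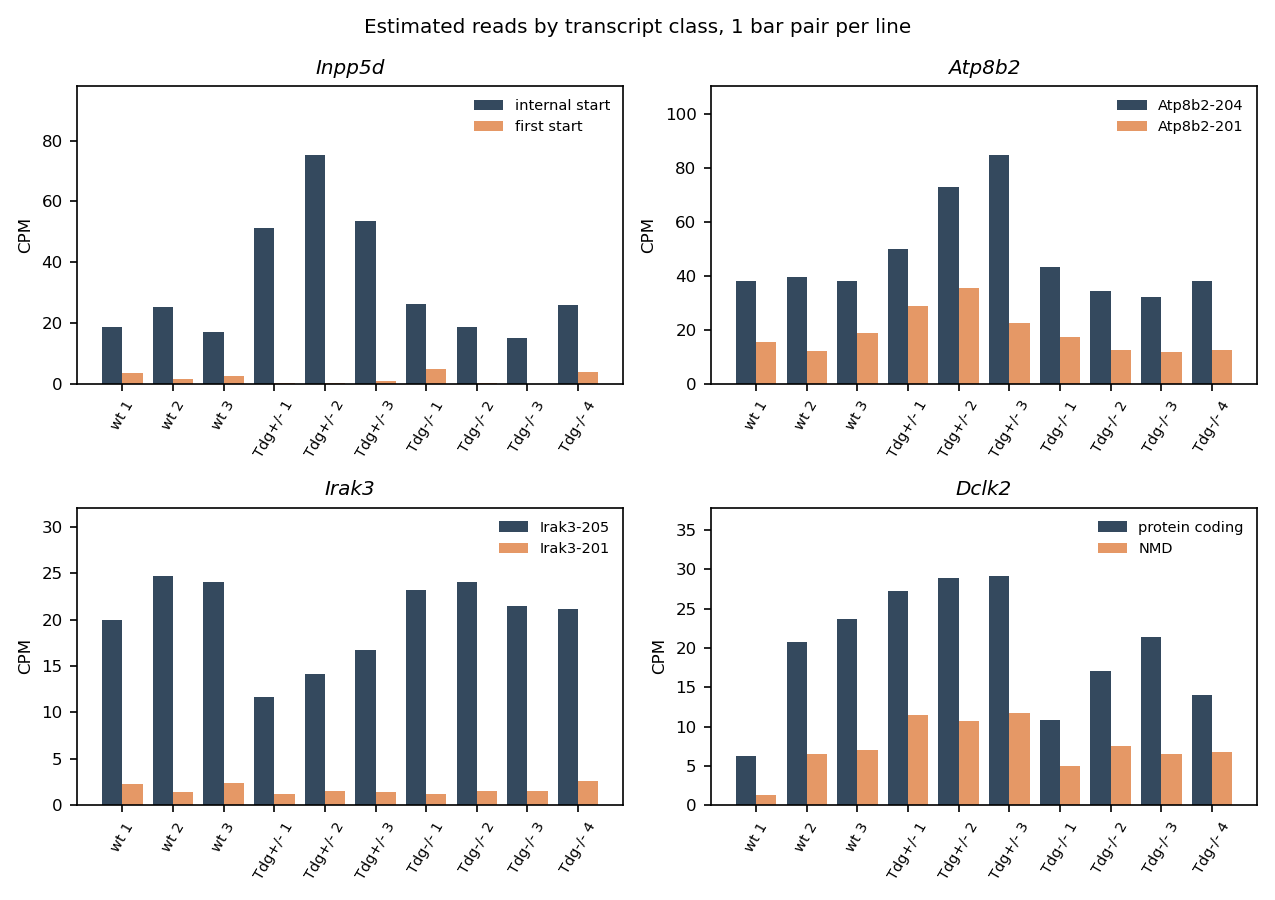
CPM (vertical axes, from 0) of transcript classes of Inpp5d, Atp8b2, Irak3 and Dclk2 in each of the 10 lines, 1 pair of bars a line; NMD is nonsense-mediated decay. The internal-start class of Inpp5d and both Atp8b2 transcripts are highest in the Tdg+/- lines, Irak3-205 is lowest there, and wt line 1 is the lowest line for both Dclk2 classes.

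Levels between genes were compared per length, in TPM. In the wt lines Atp8b2, summed over all its transcripts, was the highest with a mean of 23.7 TPM. Most of this came from transcripts that keep an intron, Atp8b2-204 (7.5, 7.6 and 7.3 TPM) and Atp8b2-203, of 736 bases (6.1, 10.6 and 11.8 TPM). The main coding transcript, Atp8b2-201, stood at 1.6, 1.3 and 1.9 TPM, so the rank of the gene is not that of its coding transcript. Zfp770 (12.1 TPM) and Irak3 (10.4 TPM) followed, with lines that overlapped, and then Inpp5d (6.51 TPM) and Dclk2 (5.601 TPM), whose lines overlapped as well. Gcn1 without its short transcripts, at 5.16 to 5.63 TPM, overlapped both. Zscan5b (0.585 TPM) and Chit1 (0.407 TPM) were the lowest and overlapped. In the Tdg+/- lines the means of Inpp5d and Zscan5b were 17.4 and 6.23 TPM, that of Zscan5b close to Irak3 at 6.31 TPM.

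The question put to the Tdg-/- lines was whether loss of both copies moved the genes as loss of 1 copy did. Between Tdg-/- and wt lines none of the 8 genes passed the test (edgeR, adjusted p = 0.295 to 0.960), beside 10 of 13926 genes called (0.0718%). At an unadjusted p under 0.05, 2217 genes passed, 1 of the 8 (Zscan5b) among them, and DESeq2 called 93 genes (0.668%), of the 8 only Zscan5b. With the line number as a block, which pairs wt and Tdg-/- lines, edgeR called 5 genes and none of the 8. Zscan5b was the 1 gene of the 8 whose Tdg-/- and wt lines did not overlap, beside 4.47% of all genes with the Tdg-/- lines higher, 5.33% lower and 9.8% in either direction. The median size of the log2 fold change was 0.10 over the 8 genes and 0.23 over all genes tested. From wt to Tdg+/- the same medians were 0.84 and 0.20, the first set by the choice of genes. Both comparisons share the wt lines.

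**Figure D3:**
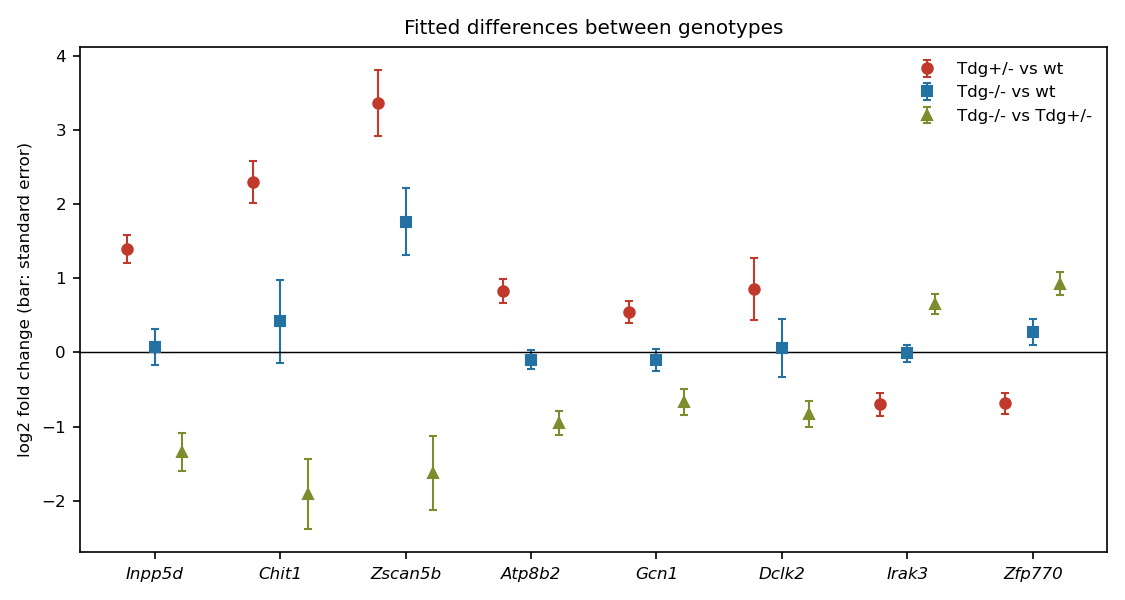
Fitted log2 fold changes (vertical axis, bars are standard errors) of the 8 genes in the comparisons of Tdg+/- with wt, Tdg-/- with wt and Tdg-/- with Tdg+/- lines. Zscan5b, at 1.76, is the gene furthest from 0 in the comparison of Tdg-/- with wt lines, where the others lie between -0.10 and 0.42.

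Between Tdg-/- and Tdg+/- lines 7 of the 8 genes passed the test, 5 lower and 2 higher in Tdg-/- lines, beside 1261 of 13962 genes (9.03%). The Tdg+/- lines of this comparison are those whose levels chose the genes, so the calls are not independent of the choice. Inpp5d had a log2 fold change of -1.35 (SE 0.255, edgeR, adjusted p = 0.0258) and Chit1 of -1.91 (SE 0.473, adjusted p = 0.0417). Atp8b2 fell by 0.96 (SE 0.162, adjusted p = 0.0241), Gcn1 by 0.67 (SE 0.176, adjusted p = 0.0474) and Dclk2 by 0.83 (SE 0.177, adjusted p = 0.0310) on the same edgeR scale. Irak3 rose by 0.65 (SE 0.137, edgeR, adjusted p = 0.0307) and Zfp770 by 0.93 (SE 0.155, adjusted p = 0.0241). Zscan5b had a log2 fold change of -1.63 (SE 0.5003) and did not pass (edgeR, adjusted p = 0.0617). For 6 of the 8 genes the Tdg-/- and Tdg+/- lines did not overlap, beside 24.5% of all genes (11.4% higher, 13.1% lower in Tdg-/- lines), and Zscan5b and Gcn1 were the exceptions. The calls depended on which lines were in the fit. Without Tdg+/- line 2 or 3, or Tdg-/- line 2, 3 or 4, none of the 8 was called among 12 to 22 genes. With transcript length offsets 3 of the 8 were called, beside 433 of 13962 genes. The log2 fold changes kept their sign in each of these fits, and without 1 line that of Inpp5d ran from -1.51 to -1.15, that of Dclk2 from -0.96 to -0.70 and that of Zfp770 from 0.87 to 1.04. Zscan5b moved to -0.91 without Tdg+/- line 2 and -2.21 without Tdg-/- line 4. Without Tdg+/- line 1, 6 of the 8 were called, beside 1535 of 13911 genes. Without Tdg-/- line 1, 7 of the 8 were called, beside 5660 of 13939 genes, a large share of all genes.

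The genes around each of the 8 were examined for a shift of the whole neighbourhood. Of 48 neighbours, the 3 tested genes on either side of each gene, none was called from wt to Tdg+/- lines (edgeR), beside 4 of 13880 genes. At an unadjusted p under 0.05, 7 passed, beside 2354 of all genes, and 29 had the sign of the gene they neighbour. The median log2 fold change of the neighbours was 0.07, and 12 of them (25.0%) had Tdg+/- and wt lines that did not overlap, beside 21.7% of all genes. The median differed between neighbourhoods and was highest around Dclk2 (0.42) and Chit1 (0.32). Ppfia4 (0.74, SE 0.191) and Atp2b4 (0.71, SE 0.220) near Chit1 and Cd1d1 (1.09, SE 0.208) near Dclk2, named after their values were seen, were higher in every Tdg+/- line than in any wt line. Next to Inpp5d, Gigyf2, a translation regulator, stood at 0.04 and the autophagy gene Atg16l1 at 0.14 on the log2 scale. Rplp0 and Rab35 beside Gcn1 stood at 0.0019 and 0.15, and Zfp444 and Epp13 beside Zscan5b at -0.0041 and 0.03. Il6ra and Hax1 beside Atp8b2 stood at 0.36 and -0.32. The helicase gene Helb, on the other side of Irak3 from Tmbim4, stood at -0.05. Aqr and Dph6 beside Zfp770 stood at 0.20 and -0.32, in both cases with lines that did not overlap. The neighbours of Dclk2 were the pseudogenes Gm3788 (1.82, SE 0.723) and Gm37025 (0.39, SE 0.326), each with a mean near 1 CPM. The antiproliferative gene Btg2 beside Chit1 stood at 0.18.

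**Figure D4:**
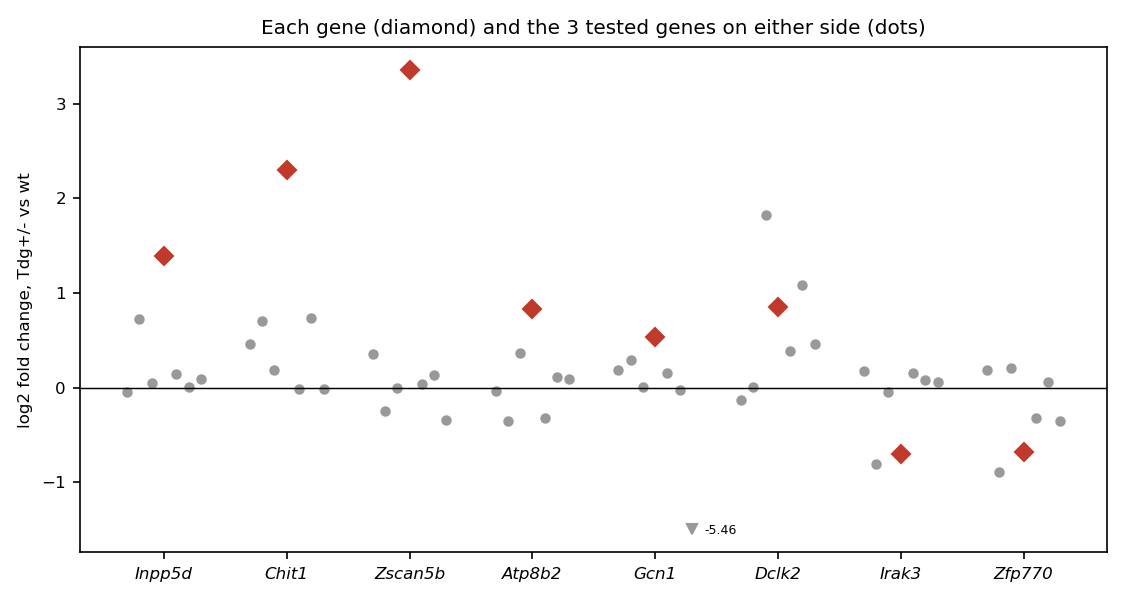
Log2 fold change from wt to Tdg+/- lines (vertical axis) of the 8 genes (diamonds) and of the 3 tested genes on either side in gene order (dots). The neighbours scatter around 0 with a median of 0.07; the triangle at the lower edge is a pseudogene near Gcn1 at -5.46.

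The start windows of the 8 genes did not share a CG content. RefSeq had a window for 7 of the 8 genes, 9 windows in all, with Zscan5b without one. Chit1, Inpp5d and the main start of Irak3 had 2, 6 and 8 CG dinucleotides, Zfp770 18, and Gcn1 28, the most of the 9. Atp8b2, with 26 and 23, and Dclk2, with 27, were near Gcn1. Transcripts that start at these windows held 5.7% and 23.3% of the reads of Atp8b2 and 4.0% of those of Dclk2. Most reads of both genes were thus assigned to transcripts whose annotated starts have no window here. For Atp8b2, 59.65% went to Atp8b2-204, which keeps an intron and is annotated to start 10143 bases inside the gene. Such an assignment does not show where transcription starts. The glucocorticoid receptor half-site AGAACA, read on both strands, was in none of the 9 windows and in 19.0% of all windows of that length, which says only that these letters are not in these windows.

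**Figure D5:**
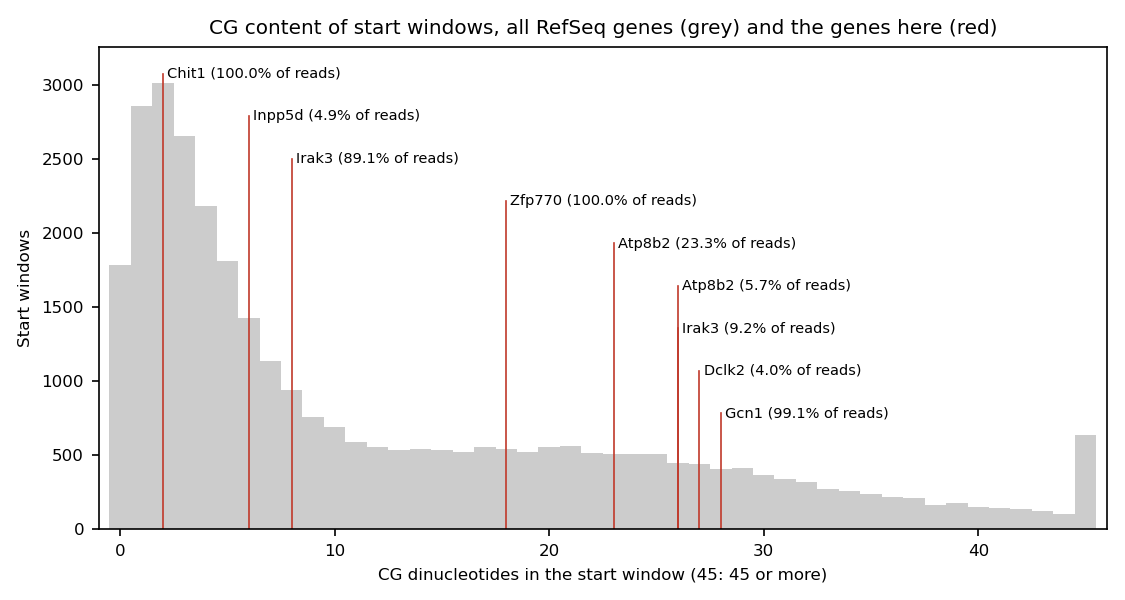
Number of RefSeq start windows of 300 bases (vertical axis) by their count of CG dinucleotides (horizontal axis), over 32851 windows in grey, with the 9 windows of the genes as red lines; in brackets is the share of the reads of the gene from transcripts that start within 100 bases. The windows run from 2 (Chit1) to 28 (Gcn1) CG dinucleotides, and the median of all windows is 7.0.

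The genes with the most similar pattern over the 10 lines were found by the correlation of log2 CPM among 12184 genes that averaged 1 CPM or more. These correlations run over lines of 3 genotypes with shared libraries and are a description. Many genes shared some of the patterns. An r of 0.9 or more was reached by 503 genes with Gcn1, 299 with Atp8b2, 223 with Zfp770 and 180 with Inpp5d. With Zscan5b, Chit1, Irak3 and Dclk2 it was reached by 79, 23, 21 and 8 genes. For Inpp5d they were D11Wsu47e on chromosome 11 (r = 0.979) and Tent5c (r = 0.976), a poly(A) polymerase gene. For Zscan5b both were on chromosome 11, the mRNA export factor gene Alyref (r = 0.982) and Crlf3 (r = 0.980). For Atp8b2 both were on chromosome 11 as well, Caskin2 (r = 0.984) and Plekhm1 (r = 0.982). Gcn1 followed Ints5 (r = 0.990), a subunit of Integrator, and the spliceosome helicase gene Snrnp200 (r = 0.989). Zfp770 followed the actin-capping gene Capza1 (r = 0.979) and Acadsb (r = 0.976). Chit1 had Bglap3 (r = 0.948) and Ssc4d (r = 0.942), Dclk2 had Carmil3 (r = 0.950) and Cnot6 on chromosome 11 (r = 0.929), and Irak3 had Agtpbp1 (r = 0.953) and Shisa2 (r = 0.933). The rank correlation was lower for Irak3, 0.685 with Agtpbp1 and 0.648 with Shisa2. Within the 8 genes, Atp8b2 and Gcn1 were the most alike (r = 0.947) and Gcn1 and Zfp770 the most opposed (r = -0.904). Dclk2 followed the others least, with r between -0.457 and 0.668.

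Lists of other genes from the pathways of 7 of the 8 genes were followed in the same fits. Of 120 genes tested, none was called from wt to Tdg+/- lines, and of 121 none from wt to Tdg-/- lines (edgeR). Among all genes these fits called 0.0288% and 0.0718%, so few that no call in the lists tells little. At an unadjusted p under 0.05, 12 were higher and 6 lower in Tdg+/- lines, and 8 higher and 8 lower in Tdg-/- lines, than in wt lines. Among all genes, 2354 of 13880 and 2217 of 13926 passed at that level. The median log2 fold changes of the lists lay between -0.11 and 0.10 from wt to Tdg+/- and between -0.15 and 0.15 from wt to Tdg-/-, with medians over all genes of -0.02 and -0.01. Between Tdg-/- and Tdg+/- lines 12 of 120 were called, 2 higher and 10 lower, beside 9.03% of all genes. Of these, 4 of the lower genes lie on chromosome 11.

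Among 25 phosphoinositide phosphatases and PI3K pathway genes, the family of Inpp5d, Mtmr2, a myotubularin phosphatase, rose by 0.41 from Tdg+/- to Tdg-/- lines (SE 0.0991, edgeR, adjusted p = 0.0397). Inpp5k on chromosome 11, Synj2 and the PI3K subunit gene Pik3r2 fell by 0.62, 0.81 and 0.67 in the same comparison. The closest relative of Inpp5d, Inppl1 for SHIP2, had log2 fold changes of 0.06, -0.30 and -0.39 in Tdg+/- against wt, Tdg-/- against wt and Tdg-/- against Tdg+/- lines, and Pdpk1, a kinase that binds PIP3, had -0.15, 0.02 and 0.14. Of 14 genes of P4-ATPases, the family of Atp8b2, their CDC50 subunits and scramblases, the flippase genes Atp9a and Atp10a fell by 0.54 (SE 0.104) and 1.03 (SE 0.218) from Tdg+/- to Tdg-/- lines. Tmem30a, the subunit that carries flippases to the membrane, had a log2 fold change of -0.31 from wt to Tdg+/- lines (SE 0.180). Of 22 genes around GCN2 and eIF2alpha, 1 was called, Drg2 on chromosome 11, a GTPase gene, which fell by 0.72 (SE 0.134) from Tdg+/- to Tdg-/- lines. Eif2s2 and Eif2b5, subunits of eIF2 and of its exchange factor, had log2 fold changes of 0.06 and 0.03 from wt to Tdg+/- lines.

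Of 10 genes of the doublecortin family and its microtubule partners, Dclk3, a relative of Dclk2, rose by 1.06 (SE 0.226) from Tdg+/- to Tdg-/- lines, while Pafah1b1 for LIS1, on chromosome 11, fell by 0.50 (SE 0.131), and Map1b (8.99 to 27.1 CPM over the lines) fell as well (adjusted p = 0.0236, edgeR). Tuba1a, a tubulin gene, had log2 fold changes of 0.54 and 0.80 in Tdg+/- and Tdg-/- lines against wt. Of 23 genes of Toll and interleukin 1 receptor signaling, the pathway that Irak3 restrains, 1 was called, the NF-kB subunit gene Rela, which fell by 0.75 (SE 0.183) from Tdg+/- to Tdg-/- lines. The kinase genes Map3k7 for TAK1 and Chuk for IKKalpha had log2 fold changes of -0.29 and -0.14 from wt to Tdg+/- lines. Of 21 genes with a SCAN domain, as in Zscan5b, Zkscan17 on chromosome 11 fell by 0.82 (SE 0.160) from Tdg+/- to Tdg-/- lines, and Zscan21 and Zscan26 had log2 fold changes of -0.13 and -0.31 from wt to Tdg+/- lines. Of 5 chitinase-like genes and chitobiases tested none was called between Tdg+/- and Tdg-/- lines (1 at an unadjusted p under 0.05). Hexa, a lysosomal hexosaminidase gene, had a log2 fold change of -0.44 (SE 0.156) from wt to Tdg+/- lines, where Chit1 had 2.30.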

How the data were processed

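RNA was prepared with a ribosome-depleted stranded total RNA kit and sequenced as single reads by the authors, who estimated transcript levels with Salmon 0.8.1 on a GRCm39 transcriptome. The deposited files hold, for each line and transcript, the estimated count (NumReads) and TPM, both as the authors' pipeline wrote them. How strand was set is not given in the sources used here. Of 116357 transcripts, 115153 (98.97%) were paired with a gene through a GENCODE annotation of GRCm38, and the others held 0.472 to 0.499% of the reads. This annotation gave names, chromosomes and gene order, and 488 symbols were updated. The estimates of a gene's transcripts were added up, and the sums were rounded. Every gene that reached 20 reads in any line of a fit was tested with edgeR 4.0.16 (TMM, quasi-likelihood test, Benjamini-Hochberg adjustment over all genes, R 4.3.3), only with lines of the genotypes compared. Log2 CPM for correlations used a prior count of 2. Promoter windows and their sequences are from RefSeq (GRCm38.p6).

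The 8 genes, and the gene lists, were chosen with earlier results of these data known. The text names all 8 genes, the nearest tested neighbours, the closest 2 genes by correlation, and from each list the 2 most abundant genes and those called. One gene that this rule names is not reported here. Inppl1, Chil1, Ppfia4, Atp2b4, Cd1d1, Sox7 and the marker genes with counts of reads were named in addition, after their values were seen. The fits were tested on simulated data. Alternatives were DESeq2 1.42.0, sva 3.50.0 (3 surrogate variables), size factors, a low read filter, all 10 lines, transcript length offsets, the line number as a block, each line left out, and, chosen after seeing the data, scaling on genes off chromosomes 11 and 16. Deviations from the genotype means correlated between wt and Tdg-/- lines of the same number (r = 0.167, 0.136 and 0.143 for numbers 1 to 3). Nothing in the labels gives a reason for it. The main fits did not pair lines, and the fit with the line number as a block, which does, is given beside them.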

Additional observations from a re-analysis of the deposited data

Results flagged for a closer look

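Among the Tdg-/- lines, Gcn1 was at 80.3 CPM in line 1 and at 53.2 to 56.0 CPM in the other lines. The gap from line 1 to the nearest line was 0.897 of the whole range of the group, above the critical value of Dixon's test for 4 lines. The 8 genes were checked this way in the Tdg-/- lines and 1 was beyond the limit. Chance gives about 1 in 20 for each single check, so 1 flag among 8 checks can arise by chance. Without this line, edgeR called 3077 genes from wt to Tdg-/- lines in place of 10, and 5660 in place of 1261 from Tdg+/- to Tdg-/- lines. The cause was not tested.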

How the results depend on the processing

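From wt to Tdg+/- lines all 8 genes kept their direction under every alternative run. The exact sizes that moved beyond the spread were Zscan5b (2.66 without Tdg+/- line 2) and Gcn1 (0.83 with transcript length offsets). Dclk2 fell from 0.85 to 0.46 without wt line 1, which counts as within the spread because its SE was 0.414 with that line (0.110 without it). The number of genes called there was 4 of 13880. It was 269 of 22817 with genes of at least 1 read, 744 of 13880 with DESeq2 and 23 of 14105 with all 10 lines in the fit. With transcript length offsets it was 0 of 13880 (2252 genes at an unadjusted p under 0.05), and with 3 surrogate variables 3350 of 13880. Of the 8 genes, 4, 7, 1, 0 and 8 were called in these fits, in the comparison that chose them. Without 1 line each, 0 to 207 genes and 0 to 5 of the 8 were called, the most, 207 of 13839 genes, without Tdg+/- line 1. From wt to Tdg-/- lines, 10 of 13926 genes were called, 19 of 23163 with genes of at least 1 read and 93 of 13926 with DESeq2 (1 of the 8). Without 1 line it was 3 to 3077 genes and 0 to 2 of the 8, the most, 3077 of 13897 genes, without Tdg-/- line 1. From Tdg+/- to Tdg-/- lines, 1261 of 13962 genes were called, 3347 with DESeq2 and 433 with length offsets (3 of the 8). Without 1 line it was 12 to 5660 genes and 0 to 7 of the 8, the most, 5660 of 13939 genes, without Tdg-/- line 1.

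With the line number as a block, 33 of 13880 genes and 3 of the 8 were called from wt to Tdg+/- lines. The block gave 5 of 13926 and 0 of the 8 from wt to Tdg-/- lines, and 6 of 13962 and 0 of the 8 from Tdg+/- to Tdg-/- lines. Deviations of same-numbered lines correlated at -0.032 to 0.104 for wt and Tdg+/- and at -0.089 to 0.038 for Tdg+/- and Tdg-/- lines. In both pairs of genotypes 1 of 3 lines correlated best with its own number. These values do not tell whether lines of the same number share a mating or a batch.

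From wt to Tdg-/- lines, several log2 fold changes near 0 changed sign: Inpp5d (-0.117) and Chit1 (-0.222) with the block, and Atp8b2 (0.023), Gcn1 (0.076) and Irak3 (0.04) with length offsets. Without 1 line, Inpp5d ran from -0.077 to 0.236, Chit1 from -0.116 to 0.741, Dclk2 from -0.349 to 0.389 and Irak3 from -0.086 to 0.026. Scaling on genes off chromosomes 11 and 16, chosen after seeing the data, called 4 of 13880, 10 of 13926 and 1384 of 13962 genes in the 3 comparisons. Of the 8 genes it called 0, 0 and 7. Where a count moved, the cause was not tested. The counts of Chit1 and Zscan5b, under 50 reads in wt lines, limit what can be said of their wt levels.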
